A study of Caenorhabditis elegans with 6 samples.

Results

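The dod genes of Caenorhabditis elegans are named as genes downstream of DAF-16. The 8 symbols dod-3, dod-6, dod-17, dod-19, dod-21, dod-22, dod-23 and dod-24 were taken by name, and each matched 1 row, giving 8 of the 46748 gene rows in the counts table. All 8 passed the filter on low counts and were among the 13494 genes tested. The libraries were made from total RNA of whole wild-type N2 hermaphrodites 5 days after the last larval stage, given RNAi. By their perturbation label, 3 of the 6 libraries are T25B9.1, the gene targeted (a predicted glycine C-acetyltransferase of threonine breakdown), and 3 are L4440, the plasmid that without an insert serves as the usual control in worm RNAi. A second label, the source name, gives T25B9.1 RNAi for all 6. No other allele or agent is named for either group, and nothing says that they were grown as separate cultures.

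DAF-16 is the worm's FOXO transcription factor. The insulin-like receptor DAF-2 signals through the kinases AGE-1, PDK-1 and AKT to keep it out of the nucleus, and weaker signalling lets it enter. Transcripts that go up in long-lived daf-2 mutants are called class 1 and those that go down class 2, and the dod symbols were given from such a screen, with dod-3 and dod-6 in class 1 and dod-17 to dod-24 in class 2. PQM-1 is a transcription factor linked to the class 2 genes. Proteins with a CUB-like domain are encoded by dod-17, dod-21, dod-22 and dod-24, and genes of that family are known in the worm for intestinal expression and for responses to bacterial infection. No molecular role is given here for dod-3, dod-6, dod-19 or dod-23.

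In build WBcel235, 4 of the genes lie on chromosome IV within 41.6 kb, a stretch of 19 gene models of which 10 were tested. They are dod-21 (WBGene00007873, chromosome IV, 12936738 to 12937988, plus strand), dod-24 (WBGene00007875, 12940106 to 12941354, minus strand), dod-22 (WBGene00010125, 12965374 to 12967392, plus strand) and dod-17 (WBGene00010745, 12976303 to 12978343, plus strand). On chromosome V lie dod-19 (WBGene00022644, 411782 to 414759) and dod-3 (WBGene00016052, 2730622 to 2731098). On chromosome III lies dod-6 (WBGene00011869, 10197716 to 10198352) and on chromosome II dod-23 (WBGene00009898, 8398161 to 8399164). All 8 are annotated as protein-coding, and no other gene model overlaps any of them.

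Library totals ran from 25480225 to 38621940 counts. T25B9.1 itself checks the labels. It had 219, 317 and 430 counts in the libraries labelled T25B9.1, against 90, 92 and 132 in those labelled L4440, a log2 fold change of 1.73 (SE 0.245, adjusted p = 0.00483 by edgeR), with few reads on the overlapping T25B9.3 (17 counts at most). The target was therefore higher, not lower, where its RNAi was labelled. The reason was not tested, and each rise or fall below is stated for the T25B9.1 label against the L4440 label.

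Of the 8 dod genes, dod-6 and dod-3 were higher in the libraries labelled T25B9.1, dod-17 and dod-19 were lower there, and dod-21, dod-22, dod-23 and dod-24 did not pass the test. Both genes that rose are the class 1 genes, and both that fell belong to class 2. The other class 2 genes, dod-21, dod-22, dod-23 and dod-24, had positive log2 fold changes (0.14, 0.36, 0.19 and 0.61). The median log2 fold change of the 8 was 0.28, and that of all genes tested was 0.00798. A positive log2 fold change was found for 6 of the 8 genes and for 52.6% of the 13494. By edgeR's quasi-likelihood test 4 of the 8 had an adjusted p under 0.05, as did 3.42% of all genes tested (1.13% higher and 2.29% lower). That share rests on 461 genes, and 307, 296 and 272 passed without T25B9.1 replicate 1, L4440 replicate 2 and L4440 replicate 3. The groups did not overlap for 5 of the 8 genes and for 17.9% of all genes tested.

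**Figure D1:**
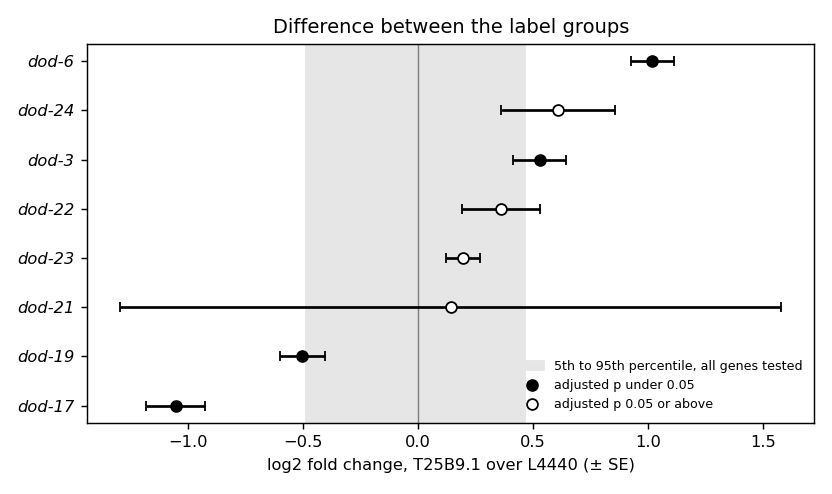
Log2 fold change (T25B9.1 over L4440, horizontal axis) of the 8 dod genes with standard errors, filled where the edgeR adjusted p was under 0.05. The grey band runs from the 5th to the 95th percentile of all genes tested, -0.49 to 0.47, and dod-6 at 1.02 and dod-17 at -1.05 lie farthest outside it.

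The class 1 gene dod-6 had 55.01, 46.9 and 47.5 CPM (CPM is a count scaled for library size with TMM factors) in the libraries labelled T25B9.1, against 27.6, 22.7 and 23.5 CPM in those labelled L4440. The lowest library labelled T25B9.1 was well above the highest labelled L4440. The means were 49.8 ± 4.51 and 24.6 ± 2.61 CPM (SD, n = 3 each), a 2.02-fold difference (log2 fold change 1.02, SE 0.0949, adjusted p = 0.000271 by edgeR). This call held without each library in turn, with adjusted p-values up to 0.00162.

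The other class 1 gene, dod-3, had 20.0, 20.1 and 21.9 CPM in the libraries labelled T25B9.1, against 12, 16 and 15 CPM in those labelled L4440. The groups did not overlap, and the L4440-labelled libraries were the more scattered. Its means of 20.7 ± 1.06 and 14.4 ± 2.27 CPM (SD, n = 3 each) came to a log2 fold change of 0.53 (SE 0.115, adjusted p = 0.0313 by edgeR). The call was lost without 5 of the 6 libraries. The adjusted p was 0.0872, 0.0623 and 0.105 without T25B9.1 replicate 1, 2 and 3, and 0.0542 and 0.0842 without L4440 replicate 1 and 3.

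Among the class 2 genes, dod-17, of the CUB-like family, showed the largest fall. It had 6.37, 5.30 and 5.09 CPM in the libraries labelled T25B9.1, against 12.8, 10.3 and 11.6 CPM in those labelled L4440. Each library labelled T25B9.1 was below each labelled L4440. The means were 5.58 ± 0.685 and 11.6 ± 1.23 CPM (SD, n = 3 each), so that dod-17 was 2.08-fold lower (log2 fold change -1.05, SE 0.128, adjusted p = 0.00119 by edgeR). Leaving out each library in turn kept the call, with adjusted p-values up to 0.00523.

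The most abundant of the 8 transcripts, dod-19, had 429, 366 and 344 CPM in the libraries labelled T25B9.1, against 499, 556 and 560 CPM in those labelled L4440. The groups did not overlap, and the means were 380 ± 44.2 and 538 ± 34.2 CPM (SD, n = 3 each). The log2 fold change was -0.50 (SE 0.0982, adjusted p = 0.0170 by edgeR), or 1.42-fold lower. Without T25B9.1 replicate 3 and without L4440 replicate 3 the adjusted p was 0.0828 and 0.0603.

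None of the other CUB-like members passed the test. For dod-24 the values were 73.7, 117 and 119.5 CPM in the libraries labelled T25B9.1, against 54.3, 61.8 and 86.7 CPM in those labelled L4440. T25B9.1 replicate 1 lay below L4440 replicate 3, so the groups overlapped. The log2 fold change was 0.61 (SE 0.248, adjusted p = 0.374 by edgeR, unadjusted p = 0.0482).

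For dod-22 the values were 17.2, 11.7 and 10.7 CPM in the libraries labelled T25B9.1, against 10.5, 9.21 and 11 CPM in those labelled L4440. One library, T25B9.1 replicate 1, stood above the other 5. The log2 fold change of dod-22 was 0.36 (SE 0.170, adjusted p = 0.418 by edgeR), and 0.12 without that library. The class 2 gene dod-23 had 97.4, 93.7 and 94.9 CPM in the libraries labelled T25B9.1, against 74.4, 85.3 and 90.3 CPM in those labelled L4440. These did not overlap, yet the difference was small (log2 fold change 0.19, SE 0.0742, adjusted p = 0.265 by edgeR, unadjusted p = 0.0245).

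The fourth CUB-like member, dod-21, was the rarest and the least repeatable. It had 1, 23 and 75 counts in the libraries labelled T25B9.1, against 1, 5 and 94 in those labelled L4440. The exact Poisson 95% interval, which covers counting error only, was 59.0 to 94.0 counts for the 75 counts of T25B9.1 replicate 3 and 76.0 to 115 for the 94 counts of L4440 replicate 3. For the single count of T25B9.1 replicate 1 and of L4440 replicate 1 it reached 5.57. The spread within each group was thus far beyond counting error, and the log2 fold change was 0.14 with an SE of 1.44 (adjusted p = 0.989 by edgeR). Without L4440 replicate 3 it was 3.32, and without T25B9.1 replicate 3 it was -1.14, with no call in either case.

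**Figure D2:**
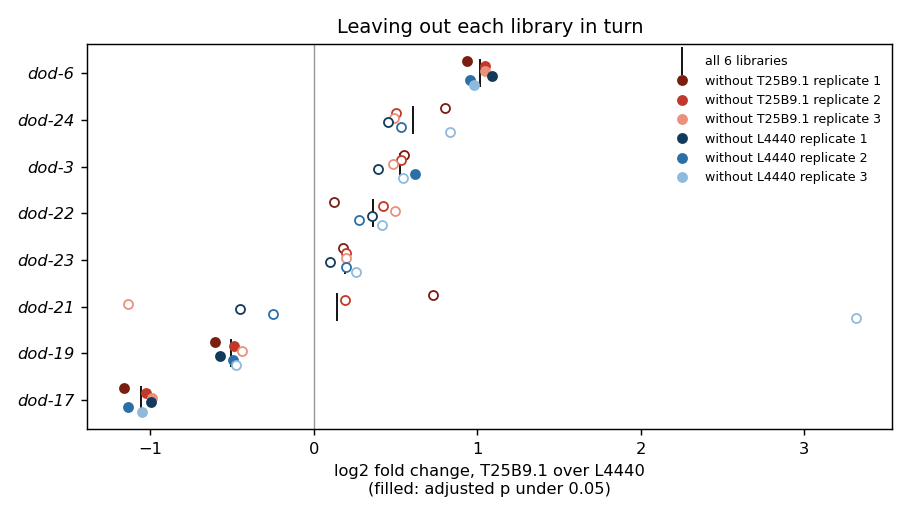
Log2 fold change (T25B9.1 over L4440, horizontal axis) of each dod gene with all 6 libraries (vertical tick) and without each library in turn (points, filled where the edgeR adjusted p was under 0.05). All points of dod-6 and dod-17 are filled, dod-3 has 1 filled point of 6, and dod-21 ranges from -1.14 to 3.32.

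Set side by side per kilobase of exon, so that genes of different length can be compared, the levels covered a wide range. In the libraries labelled T25B9.1 the mean level was 272 CPM per kb for dod-19, 129 for dod-23, 89.4 for dod-24, 85.7 for dod-6, 49.2 for dod-3, 10.5 for dod-22, 4.90 for dod-17 and 0.895 for dod-21. In the libraries labelled L4440 it was 386 for dod-19, 113 for dod-23, 58.4 for dod-24, 42.3 for dod-6, 34.2 for dod-3, 10.2 for dod-17, 8.17 for dod-22 and 0.751 for dod-21. The order of these levels was the same in both groups except for dod-17 and dod-22, which changed places. In the T25B9.1-labelled libraries dod-24 (63.7 to 103) and dod-6 (80.7 to 94.7) overlapped, while dod-22 (8.49 to 13.7) lay wholly above dod-17 (4.46 to 5.58). In the L4440-labelled libraries dod-24 (46.9 to 74.9) and dod-6 (39.1 to 47.5) overlapped, as did dod-6 and dod-3 (28.5 to 39.3), and dod-17 (9.06 to 11.21) lay above dod-22 (7.33 to 8.76).

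**Figure D3:**
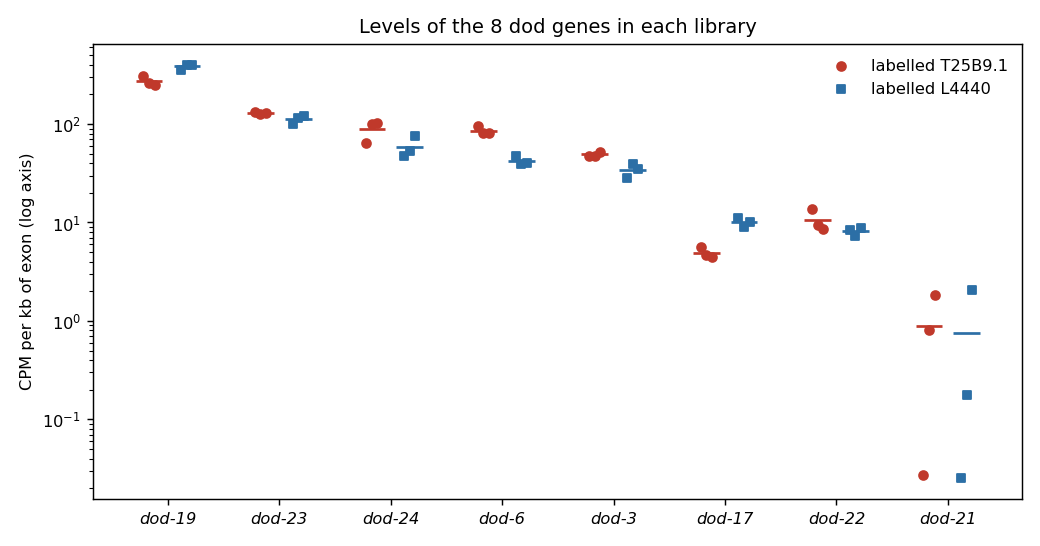
Level in CPM per kb of exon (log axis) of the 8 dod genes in each library, with group means as bars, libraries labelled T25B9.1 to the left of those labelled L4440. Means run from 272 and 386 CPM per kb for dod-19 to 0.895 and 0.751 for dod-21, whose libraries are spread widest.

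The spread between libraries of one group also differed among the genes. Pooled over both groups, the within-group SD of log2 CPM was 0.103 for dod-23, 0.134 for dod-19, 0.139 for dod-6, 0.162 for dod-17 and 0.172 for dod-3, near the median of 0.143 over all genes tested. It was 0.272 for dod-22 and 0.372 for dod-24, and 2.39 for dod-21, which exceeded that of 99.99% of the genes tested. The gene just before dod-21, cld-1 (named for a CUB-like domain, 466 bases away, and too low to be tested), had 0, 4 and 37 counts in the libraries labelled T25B9.1, against 1, 2 and 45 in those labelled L4440. Its highest libraries were those in which dod-21 was highest. For the count of 0 the exact Poisson 95% interval reached 3.69 counts.

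C32H11.4, which lies before dod-21 on chromosome IV, and F55G11.4, next to dod-17, were also highest in replicate 3 of each group. C32H11.4 had 23.9, 29.2 and 37.4 CPM in the libraries labelled T25B9.1, against 14.1, 14.7 and 22.5 CPM in those labelled L4440. F55G11.4 had 343, 538 and 763 CPM in the libraries labelled T25B9.1, against 182, 233 and 460 CPM in those labelled L4440. Neither passed the test between groups (log2 fold change 0.81, SE 0.216 and 0.91, SE 0.468; edgeR adjusted p = 0.113 and 0.532). C32H11.4 passed by DESeq2 (adjusted p = 0.000714) and without L4440 replicate 3 (0.0155). The genes cld-1, C32H11.4 and F55G11.4 are described here after their values were seen. Replicate numbers follow accession order, and whether they pair the libraries of the groups was not settled.

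**Figure D4:**
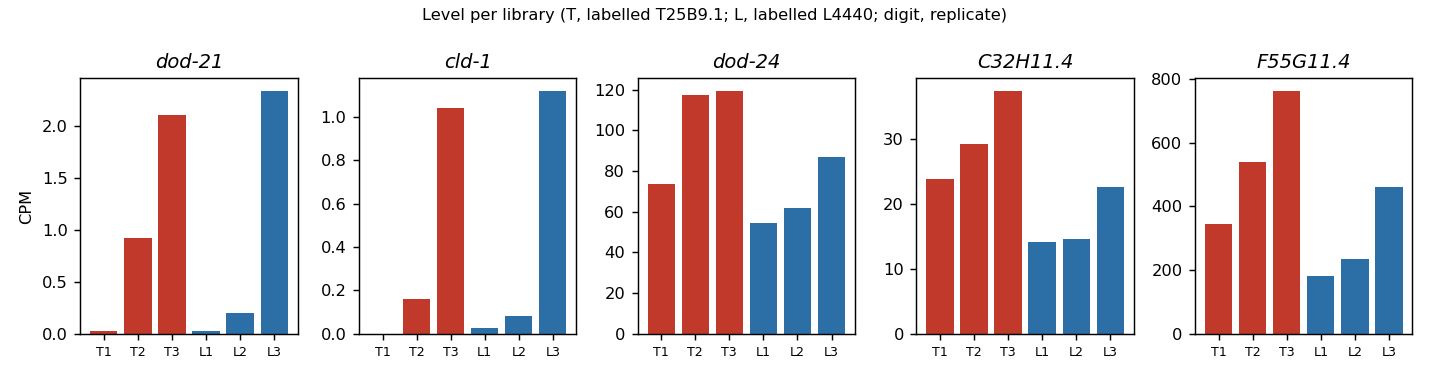
Level in CPM of dod-21, cld-1, dod-24, C32H11.4 and F55G11.4 in each library, red for those labelled T25B9.1 and blue for those labelled L4440, on separate axes that start at 0. In all 5 genes replicate 3 has the highest bar of its group, at 2.11 and 2.34 CPM for dod-21.

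Genes near the 8 members were counted within 20 kb. Of 34 tested, 4 passed the test, 2 higher and 2 lower under the T25B9.1 label, with a median log2 fold change of 0.03. Over all genes tested 3.42% passed. The next gene after dod-24, dct-19, 1578 bases away, had 28, 26 and 46 counts in the libraries labelled T25B9.1, against 3, 4 and 6 in those labelled L4440. It was 8.02-fold higher (log2 fold change 3.00, SE 0.337, adjusted p = 0.000768 by edgeR), at a level near 1 CPM. Near dod-6, T20G5.8 gave 0.59 on the log2 scale (SE 0.131, adjusted p = 0.0351 by edgeR), a call lost without each library in turn (adjusted p = 0.0522 to 0.162). Near dod-23, drd-1 fell to 19.2 ± 1.77 CPM in the libraries labelled T25B9.1, against 44.2 ± 3.67 CPM in those labelled L4440 (SD, n = 3 each, log2 fold change -1.20). Near dod-3, C24B9.3 had a log2 fold change of -1.02 (SE 0.0683), and it overlaps the gene nuo-5 on the other strand, with which its reads could be shared.

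The stretch that holds the CUB-like members was looked at clone by clone, a clone being the sequenced piece of genome after which its genes are named. Over the adjacent clones K08D8, C32H11, F55G11 and K10D11, 21 genes other than the dod members were tested. Of these, 1 was higher (dct-19) and 2 were lower (K08D8.3 and K08D8.6), against 1.13% and 2.29% of all genes tested. The log2 fold change of K08D8.3 was -0.83 (SE 0.141, adjusted p = 0.00827 by edgeR). K08D8.6 had -0.42 (SE 0.0980, adjusted p = 0.0444 by edgeR) and lost the call without each library except L4440 replicate 1 (adjusted p = 0.0941 to 0.186), with upper-quartile factors (0.0507), with only genes averaging 50 counts or more (0.0663) and by limma-voom (0.0631). The median log2 fold change was -0.42 over the 7 tested genes of K08D8, 0.67 over the 5 of C32H11, 0.42 over the 5 of F55G11 and -0.30 over the 4 of K10D11, the dod members left out. Values were positive for 4 of 5 genes in C32H11, the clone of dod-21 and dod-24, and for 3 of 5 in F55G11, the clone of dod-22. They were negative for 3 of 4 in K10D11, the clone of dod-17, and for 6 of 7 in K08D8, which holds no dod member. Among the genes of C32H11, F55G11 and K10D11 only dct-19 passed the test, and 52.6% of all genes tested had a positive value.

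With clone C17H12, also on chromosome IV but elsewhere, and the remaining cld genes, 33 genes were tested. Of these, 1 was higher and 4 were lower, against 1.13% and 2.29% of all genes tested. The further falls were in cest-4, a carboxylesterase-like gene (log2 fold change -0.50, SE 0.103), and cld-9 (-0.54, SE 0.122), with edgeR adjusted p-values of 0.0223 and 0.0370. Not every gene of these clones is CUB-like. Without T25B9.1 replicate 2, T25B9.1 replicate 3, L4440 replicate 2 and L4440 replicate 3 the number called was 2, 2, 2 and 3. Without those 4 libraries in turn cest-4 had adjusted p-values of 0.0626, 0.0805, 0.108 and 0.0951 (0.0646 without T25B9.1 replicate 1) and cld-9 0.0764, 0.105, 0.128 and 0.141.

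**Figure D5:**
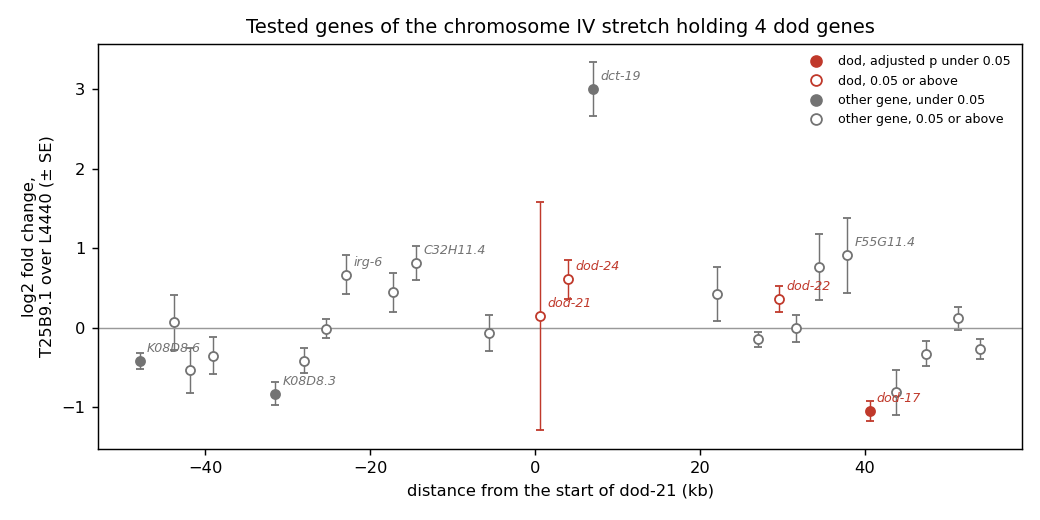
Log2 fold change (T25B9.1 over L4440, ± SE) of tested genes along chromosome IV against the distance of the gene's middle from the start of dod-21, in kb. Dod genes are red and other genes grey, filled where the edgeR adjusted p was under 0.05, and dct-19 at 3.00 and dod-17 at -1.05 mark the ends of the range.

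The 20 genes of insulin-like signalling and DAF-16 regulation were all tested, with a median log2 fold change of 0.06. Of these, 1 passed by edgeR, against 3.42% of all genes tested. It was ins-7, higher under the T25B9.1 label and encoding an insulin-like peptide known as an agonist of DAF-2. It had 11, 10.1 and 8.63 CPM in the libraries labelled T25B9.1, against 4.203, 6.20 and 5.52 CPM in those labelled L4440 (log2 fold change 0.91, SE 0.156, adjusted p = 0.00841 by edgeR). The groups did not overlap. The log2 fold change was 0.09 for the receptor gene daf-2 (SE 0.152), 0.02 for the phosphoinositide 3-kinase gene age-1 (SE 0.0683) and 0.10 for the kinase gene pdk-1 (SE 0.0701). It was 0.07 for akt-1 (SE 0.0724), whose reads could be shared with rop-1 on the other strand, -0.06 for akt-2 (SE 0.0810) and 0.19 for the kinase gene sgk-1 (SE 0.116). For daf-16 itself it was 0.07 (SE 0.0940) and for pqm-1 0.15 (SE 0.0923). None of these 8 genes passed by edgeR, and the smallest unadjusted p among them was 0.125 (sgk-1). Among the named peptides and regulators of smallest p, ftt-2, a 14-3-3 gene, had -0.12 (SE 0.0786) and the sirtuin gene sir-2.1 had -0.09 (SE 0.0668).

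Other textbook genes that DAF-16 activates went both ways. Of 27 in the list 22 were tested, with a median log2 fold change of -0.03. By edgeR 3 rose and 4 fell under the T25B9.1 label, against 1.13% and 2.29% of all genes tested. The lysozyme gene lys-7 averaged 2229 ± 204 CPM in the libraries labelled T25B9.1, against 1169 ± 257 CPM in those labelled L4440 (SD, n = 3 each, log2 fold change 0.93), and the thaumatin-like gene thn-2 had 0.48 on the log2 scale (SE 0.0864). The glyoxylate shunt gene icl-1 fell (-0.82, SE 0.104), as did the glyceraldehyde-3-phosphate dehydrogenase gene gpd-2 (-0.45, SE 0.0674), which has a near-identical copy and overlaps mai-1, and the steroid dehydrogenase-like gene stdh-1 (-0.46, SE 0.0853). The last called genes, named after their values were seen, were thn-1 (2.52, SE 0.399) and hsp-16.48 (-0.77, SE 0.183), a small heat-shock gene with a near-identical copy. Also named outside the rule, the superoxide dismutase gene sod-3 had 1.85, 1.64 and 1.74 CPM in the libraries labelled T25B9.1, against 2.30, 2.92 and 2.34 CPM in those labelled L4440 (log2 fold change -0.51, SE 0.163, with the overlapping lido-1 on the other strand at up to 537 counts, adjusted p = 0.154 by edgeR). The metallothionein gene mtl-1 gave 0.21 on the log2 scale (SE 0.160, adjusted p = 0.689 by edgeR).

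The number called in that list was 4 without L4440 replicate 2 and 4 without L4440 replicate 3. By edgeR, stdh-1 had adjusted p-values of 0.0577, 0.0511 and 0.0616 without T25B9.1 replicate 3, L4440 replicate 2 and L4440 replicate 3. For hsp-16.48 they were 0.0723 to 0.191 without each library but L4440 replicate 1, 0.0576 with only genes averaging 50 counts or more, 0.0535 without robust estimation and 0.0711 by limma-voom. For thn-1 they were 0.0900 to 0.168 without each L4440-labelled library or T25B9.1 replicate 2, and 0.146 when no low counts were filtered out.

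The dct genes, the dao genes and the further dod genes were described by symbol. Of the 15 dct genes, named as controlled by DAF-16 and affecting germline tumours, 10 were tested. Of these, 4 passed the test, against 3.42% of all genes tested. The one that rose is dct-19, and those that fell are dct-8 (log2 fold change -0.87, SE 0.113), dct-17 (-0.83, SE 0.127) and dct-16 (-0.47, SE 0.0831; edgeR adjusted p = 0.0593 without T25B9.1 replicate 3). The dct gene of next smallest p, dct-7, had -0.78 (SE 0.237, adjusted p = 0.145 by edgeR). It passed by DESeq2 (adjusted p = 0.0276), when no low counts were filtered out (0.0341) and without T25B9.1 replicate 3 (0.0314). Of the 4 dao genes tested none passed by edgeR, DESeq2 or limma-voom, and 1 had an unadjusted p under 0.05 (dao-3, -0.15, SE 0.0689). The others had 0.22 (dao-5, SE 0.122, overlapped by rsa-1 on the other strand), -0.46 (dao-6, SE 0.474) and -0.09 (dao-2, SE 0.170). The 2 further dod symbols in the table, dod-18 and dod-20, had log2 fold changes of -0.16 (SE 0.0999) and -0.49 (SE 0.283), and neither passed by edgeR (unadjusted p = 0.145 and 0.110), DESeq2 or limma-voom. Reads of dod-18 could be shared with rskn-2 and C54G4.7 on the other strand.

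CUB-like genes are also known as infection-response genes, so a list of 24 names from the PMK-1 kinase pathway and infection responses was set beside them. The gene irg-6 was in it under both its symbol and its sequence name, leaving 23 genes. All 23 were tested, with a median log2 fold change of 0.00865, and 4 passed, against 3.42% of all genes tested. The falls were in spp-17, a saposin-like gene (log2 fold change -1.15, SE 0.0966), and the C-type lectin gene clec-85 (-0.38, SE 0.0685), which overlaps other gene models. The rises were in ilys-3, an invertebrate lysozyme gene (2.20, SE 0.369), and clec-60 (1.66, SE 0.336), with means of only 1.13 and 0.780 CPM in the libraries labelled T25B9.1. The next gene by p, lys-2, gave -0.34 on the log2 scale (SE 0.0974, adjusted p = 0.111 by edgeR), and passed by DESeq2 (0.0358) and when no low counts were filtered out (0.00310). The number called was 2 without T25B9.1 replicate 3, when clec-85 had an edgeR adjusted p of 0.0516. For clec-60 it was 0.0545 to 0.0882 without each library but T25B9.1 replicate 2.

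Across the 6 libraries, the genes with the profile closest to each called dod gene were found by the root-mean-square difference of log2 CPM after centring each gene on its mean. A log2 fold change like that of the dod gene follows from this choice and is no separate result. Closest to dod-6 were cyp-32B1 (0.101), srlf-3 (0.109) and T01D3.6 (0.122), which had log2 fold changes of 1.13, 1.02 and 1.21. Closest to dod-17 were DH11.2 (0.106), ugt-19 (0.114) and K08D8.3 (0.120), with -0.92, -1.23 and -0.83. The last of these lies on the same stretch of chromosome IV. Closest to dod-3 were nuc-1 (0.0767), abf-5 (0.0796) and mfsd-13.2 (0.0900), with 0.50, 0.61 and 0.46. Closest to dod-19 were F58G6.7 (0.0448), lbp-5 (0.0470) and stdh-1 (0.0490), with -0.52, -0.58 and -0.46. By edgeR mfsd-13.2 and F58G6.7 did not pass (adjusted p = 0.126 and 0.0611). F58G6.7 passed by DESeq2 (0.0323) and when no low counts were filtered out (0.0179). The calls of nuc-1, abf-5, lbp-5 and stdh-1 were lost when some of the libraries were left out. The median difference over the 10295 genes compared was 0.528 for dod-6, 0.552 for dod-17, 0.318 for dod-3 and 0.297 for dod-19.

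Tissue markers bear on these levels, since in whole animals fewer cells of a type and less RNA per cell cannot be told apart. The summed level of 10 intestinal markers was 1384 to 1750 CPM in the libraries labelled T25B9.1, against 1317 to 1414 CPM in those labelled L4440, and 3 of the 10 were higher by edgeR. These were pept-1 (log2 fold change 0.91, SE 0.123), ifb-2 (0.74, SE 0.0841) and cpr-1 (0.57, SE 0.125, adjusted p = 0.0594 to 0.105 without each library but T25B9.1 replicate 1), and the median of the list was -0.0064. With the list median slightly negative, the rises of these 3 were not shared by the list as a whole. By edgeR 6 of the 10 had an unadjusted p under 0.05 in either direction. They were these 3 with ges-1, pho-1 and act-5, whose directions are not given here. By DESeq2 4 of the 10 passed, and by limma-voom 3. The part of the intestinal markers in the levels of the dod genes was not tested. The summed level of 4 pharyngeal markers was 51.3 to 63.0 CPM in the libraries labelled T25B9.1, against 37.3 to 51.2 CPM in those labelled L4440. Their median log2 fold change was 0.61. None of the 4 passed by edgeR, but 3 had an unadjusted p under 0.05, and 1 each passed by DESeq2 and limma-voom. None of the tested markers of hypodermis, body-wall muscle, neurons, germline or sperm passed by edgeR, DESeq2 or limma-voom, and 1 (col-19, of hypodermis) had an unadjusted p under 0.05. No marker was at 0 in all libraries.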

How the data were processed

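RNA of whole animals went into Illumina TruSeq RNA version 2 libraries, per the labels' protocols. This kit keeps no record of the strand. The deposited values are raw counts of reads per gene, and bcl2fastq 1.8.4, featureCounts 1.4.6-p4, STAR 2.4.1d and build WBcel235 are listed for them in the submitters' processing notes. The strand setting and the treatment of shared reads are not given in the sources used here. A deposited RPKM table was not used, because its scaling within a library changed with row number.

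Libraries were grouped by the perturbation in their labels and numbered in accession order. Between libraries of a group, chi-square per degree of freedom was 6.18 to 39.7, so none was taken as a duplicate. Symbols matched 43693 of 46748 identifiers. Positions and exon lengths came from Ensembl release 115 (46449 matched), which has the same build.

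Genes were tested with the quasi-likelihood F-test of edgeR (edgeR 4.0.16, R 4.3.3, robust, TMM factors, filterByExpr with a minimum count of 10) with no covariate, Benjamini-Hochberg adjustment over all genes tested and a threshold of 0.05. Each SE is the size of the log2 value over the square root of F. With 3 against 3 libraries an exact permutation p is at least 0.1. P-values measure the spread between these libraries, which may be technical. In 3 simulated runs of 13332 genes the test recovered 56.2% of 1.5-fold, 84.1% of 2-fold and 93.9% of 4-fold changes, and 5.65% of its calls were false.

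The members, lists and naming rules were chosen with earlier results of these data known. Named were all members, the target, preset pathway genes, called genes within 20 kb of a member, up to 5 genes of smallest p per list, and the 3 nearest profiles (genes averaging 50 counts or more) to each called member. One preset pathway gene is not reported here. Alternatives were RLE and upper-quartile factors, 2 other filters, DESeq2 1.42.0, limma-voom (limma 3.58.1), a fit without robust estimation, a block of consecutive library numbers and leaving out each library.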

Additional observations from a re-analysis of the deposited data

How the results depend on the processing

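Under RLE and upper-quartile factors, both other filters, DESeq2, limma-voom, the fit without robust estimation and the block, dod-3, dod-6, dod-17 and dod-19 kept their direction and their call. Their log2 fold changes were 0.52 to 0.55, 1.01 to 1.02, -1.06 to -1.05 and -0.51 to -0.50. With a mean of at least 50 counts dod-21 was not tested. The consecutive library numbers in the titles (1 of each group) were tried as a replicate block. Deviations from the group means correlated by -0.0514, 0.124 and 0.222 within these pairs, so the numbers were not taken to pair the libraries, and T25B9.1 replicate 1 correlated best with L4440 replicate 2 (0.0347). With the replicate block the number of genes past the threshold was 597, and dod-24 passed (log2 fold change 0.61, edgeR adjusted p = 0.00661). C32H11.4, F55G11.4 and dct-7 passed with the block as well (edgeR adjusted p = 0.00046, 0.00033 and 0.0104). The infection-response list then had 7 called genes and the list of clones 8. With a mean of at least 50 counts these lists had 2 and 3. With no filter on low counts 719 genes passed, 256 of them higher.

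Leaving out each library in turn gave 272 to 517 genes past the threshold, 88 to 154 higher and 175 to 363 lower. The log2 fold change was 0.39 to 0.62 for dod-3, -0.60 to -0.44 for dod-19 and -1.14 to 3.32 for dod-21, which was -0.45 without L4440 replicate 1 and -0.25 without L4440 replicate 2. The lists had 4 to 6 (DAF-16-activated), 2 to 4 (infection response) and 2 to 5 (clones) called genes. Scaling moved the median log2 fold change of all genes by less than 0.1. Counts were few for dod-21 and dct-19, at 33.2 and 18.8 on average. The spread of dod-21 within each group went beyond counting error, and dct-19 kept its call without each library in turn.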

Other observations

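Replicate 3 had the highest CPM of both groups for 12.2% of all genes tested, and for 11 of the 25 tested genes of the 4 adjacent chromosome IV clones. Among these 11 were dod-21 and dod-24 but neither dod-17 nor dod-22. In clone C32H11, which holds dod-21 and dod-24, it was so for 5 of 7 tested genes. In 6 of the 25, and in 1.93% of all genes tested, replicate 1 was in addition the lowest of both groups. These counts were made after the values were seen.

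By the profile measure used for the called dod genes, the nearest gene to dod-21 was nspg-7.2 at 0.927, followed by oac-20 at 0.968, against a median of 1.98. In the libraries labelled T25B9.1 nspg-7.2 had 0.246, 5.46 and 21.01 CPM, against 0.317, 0.240 and 9.63 CPM in those labelled L4440. For oac-20 the values were 4.21, 24.7 and 31.8 CPM in the libraries labelled T25B9.1, against 2.102, 3.72 and 12.4 CPM in those labelled L4440. Neither passed by edgeR (adjusted p = 0.861 and 0.642). The 3 nearest to dod-24 were acs-7 on chromosome II at 0.166, C32H11.4 of the same clone at 0.168 and clec-52 at 0.169.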
